A study of Mus musculus with 3 samples.

Results

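The measurements are from spleen B cells of mice with ovalbumin (OVA)-induced allergic rhinitis. Described here are 10 genes grouped as feedback inhibitors of MAPK and NF-kB signaling. They were taken by gene name from a table of 27088 genes, and all 10 were found: the MAPK phosphatase genes Dusp1 and Dusp2, the mRNA decay genes Zfp36 and Zfp36l1, the antiproliferative genes Btg1 and Btg2, the NF-kB inhibitor genes Nfkbia and Tnfaip3, and the stress response genes Ppp1r15a and Gadd45b. The groups compared were PBS and SJMHE1, the latter named after a peptide derived from Schistosoma japonicum. All mice were female BALB/c, 6 weeks of age when the protocol began and 13 weeks by the label of the samples. Both groups received 10 μg OVA with 2 mg Al(OH)3 intraperitoneally on days 0, 7 and 14, were challenged with 100 μg OVA through the nose from day 21 to 27 and again from day 29 to 35, and were killed on day 36. On days 0, 14 and 28 the PBS group was injected with PBS, and the SJMHE1 group with 10 μg SJMHE1 in incomplete Freund's adjuvant, so that peptide and adjuvant cannot be told apart. Splenic B cells were sorted and RNA from 3 mice per group was mixed, giving 1 library for each group. The third library of the series, Control, was not analysed here. With 1 library per group there was no test and no p-value, and every difference below describes those 2 libraries.

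MAPK and NF-kB signaling carry the signal from antigen, Toll-like and cytokine receptors to the nucleus, and the genes they switch on include their own brakes. Dual-specificity phosphatases remove phosphate from activated MAP kinases, IκBα holds NF-kB in the cytoplasm, A20 edits ubiquitin chains upstream of the IκB kinases, and tristetraprolin and its relatives direct AU-rich mRNAs to decay. In B cells several of these genes are known as early response genes, whose mRNAs appear quickly after stimulation or cell handling and are short-lived.

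The 3′ untranslated regions hold the AU-rich signal by which such mRNAs are recognised, and the nonamer TTATTTATT was present in 6 of the 10 genes. In the 9913 compared genes with a protein-coding transcript in GENCODE M21, 7.24% had this nonamer. The first match of 5 of the 6 genes is shown in 30 bases of the GENCODE M21 transcript (GRCm38), since it is a feature that most of these genes share, with the nonamer in capitals. All 5 lie on the minus strand, at chr7:28376950-28376979 for Zfp36, chr12:80108166-80108195 for Zfp36l1, chr17:26506158-26506187 for Dusp1, chr12:55489607-55489636 for Nfkbia and chr7:45522956-45522985 for Ppp1r15a.
Zfp36: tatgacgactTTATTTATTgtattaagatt
Zfp36l1: aactgttggaTTATTTATTttagaaattct
Dusp1: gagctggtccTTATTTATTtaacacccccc
Nfkbia: ggaccacgttTTATTTATTgtgcttttgat
Ppp1r15a: tagtttcctaTTATTTATTtatttatttat

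Ppp1r15a held 4 overlapping nonamers in a 3′ untranslated region of 71 bases, and Dusp1 held 2 in 690 bases. No nonamer was found in Btg1, Btg2, Dusp2 or Gadd45b, although Btg1 had 11 and Dusp2 had 4 copies of the pentamer ATTTA, while Gadd45b had none. Pooled over all bases, there were 3.56 pentamers per kilobase in the 10 genes and 1.84 in the compared genes. The genes are also compact. Their transcripts had a median of 3 exons and spanned a median of 3354 bases of the genome, against 9 exons and 20606 bases in the compared genes. A match of letters does not show that a factor binds there.

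Both libraries were deep enough to measure each of the 10 genes closely. The total count was 48267168 for PBS and 51280237 for SJMHE1, and single members had between 2233 and 89142 counts. Levels are given as FPKM, fragments per kilobase of transcript scaled to the mapped fragments of the library. This allows a comparison between genes of unequal length, as far as the length assigned to each gene is right. The 95% intervals come from the counts and express counting error only, so that neither the spread between mice nor that between sorts is in them. Genes were compared where the FPKM reached 1 in at least 1 library and was above 0 in both, which left 12433 genes and all 10 members. B cell identity was checked against 12 B cell markers, of which Cd79a, a part of the B cell receptor, had an FPKM of 835 in each library. Of these 12 genes, 1 was past 1.5-fold, the complement receptor gene Cr2, with an FPKM of 136 in PBS, 218 in SJMHE1 and a log2 ratio of 0.68, and the median was 0.01. The summed FPKM of these markers was 3580 and 3746. RNA of other cells was also present. The summed FPKM of 12 T cell markers was 54.5 in PBS and 32.4 in SJMHE1, and 10 of the 11 T cell genes compared were more than 2-fold lower in the latter, the remaining one, Lck, having a log2 ratio of -0.15. Of T cell genes, Cd3e had an FPKM of 1.77 and 0.39. The summed FPKM in the PBS and the SJMHE1 library was 124 and 69.7 for 12 macrophage markers, 467 and 539 for 10 neutrophil markers, 14.7 and 6.72 for 8 NK cell markers, 8.30 and 3.84 for 8 dendritic cell markers, 154 and 202 for 9 erythroid markers and 790 and 595 for 8 plasma cell markers. Sums and single genes differed in direction for some of these lists. Of the 10 macrophage genes compared, 6 were higher in SJMHE1, with a median of 0.16, while the sum followed Lyz2, with an FPKM of 88.8 in PBS and 37.4 in SJMHE1. Of the 10 neutrophil genes, 6 were lower, with a median of -0.25, while S100a9 had an FPKM of 196 and 266. Several members are also expressed in T cells and myeloid cells, and the part of these cells in the differences below was not tested. In a mixed cell population, fewer cells of a type and less RNA per cell cannot be told apart.

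All 10 genes were abundant in both libraries. Ordered by level, they ranked between 89 and 1127 among all genes of the PBS library and between 86 and 1739 in SJMHE1, and together they held 0.711% of the counts in PBS and 0.701% in SJMHE1. The exact binomial intervals of these shares, 0.709% to 0.714% and 0.699% to 0.703%, did not overlap. These intervals express counting error only, and the summed FPKM of the 10 genes went the other way, 1845 in PBS and 1865 in SJMHE1. The direction of their total therefore depended on the measure. Zfp36 was the highest of the 10 in both libraries and Gadd45b the lowest. From high to low the order in PBS was Zfp36, Ppp1r15a, Btg1, Zfp36l1, Dusp1, Dusp2, Btg2, Nfkbia, Tnfaip3 and Gadd45b, and of these neighbours Btg2 and Nfkbia had overlapping counting intervals. In the SJMHE1 library Dusp1 moved from position 5 to position 3, above Btg1 and Zfp36l1, and the rest of the order was as in PBS, with no overlap between neighbours. The order also rests on the length assigned to each gene in the FPKM, which the counting intervals do not cover. In PBS, Dusp1 had more counts than Zfp36l1, 35071 against 32642, but a lower FPKM. Its GENCODE M21 transcript is nevertheless the shorter, 1990 against 2990 bases. The order could therefore differ with other lengths.

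**Figure D1:**
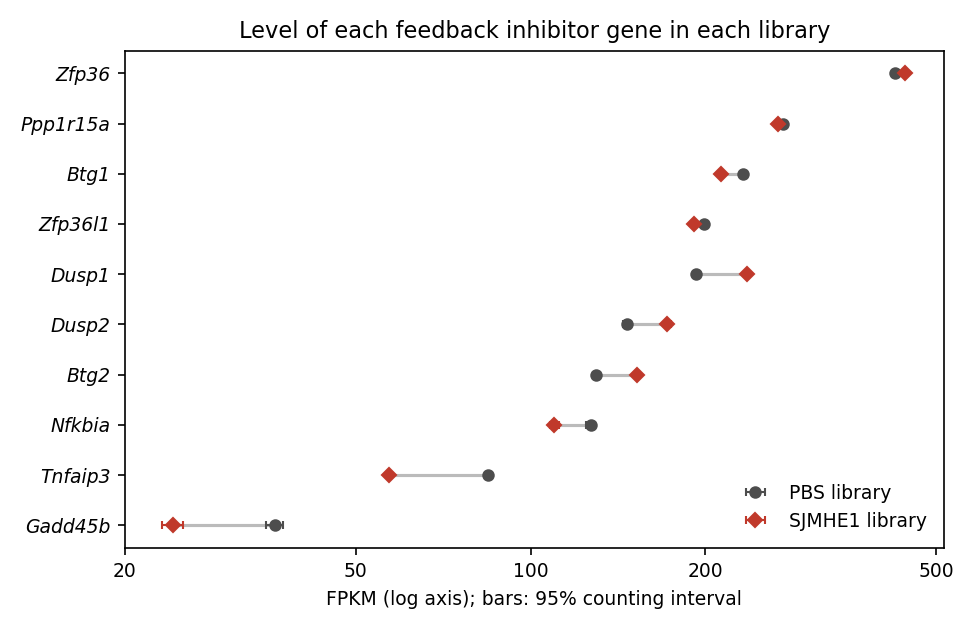
FPKM on a log axis for each of the 10 genes in PBS (circles) and the SJMHE1 library (diamonds), with 95% counting intervals, which are narrower than most symbols. The libraries lie close together for Zfp36, Ppp1r15a and Zfp36l1, while Tnfaip3 and Gadd45b lie furthest apart, with the PBS library higher.

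Dusp1 and Dusp2 were both higher in SJMHE1. Dusp1 (ENSMUSG00000024190) encodes a nuclear phosphatase that inactivates p38, JNK and ERK. Its gene spans chr17:26505590-26562128 on the minus strand (GRCm38), and the 4 exons of its principal transcript end at 26508519. The FPKM of Dusp1 was 193 in PBS, from 35071 counts, and 236 in SJMHE1, from 45374 counts. The log2 ratio of 0.29 (0.27 to 0.31) was the highest of the 10 genes, and 84.8% of the compared genes had a lower one. Dusp2 (ENSMUSG00000027368), a phosphatase best known from activated lymphocytes, lies at chr2:127336159-127338376 on the plus strand with 4 exons. The FPKM of Dusp2 was 147 in PBS, from 16139 counts, and 172 in SJMHE1, from 20037 counts, a log2 ratio of 0.23 (0.20 to 0.26). Between the phosphatases, the log2 ratio of Dusp1 exceeded that of Dusp2 by 0.06, with an interval from 0.02 to 0.10. Such a difference between 2 genes does not depend on how the libraries are scaled.

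The antiproliferative genes Btg1 and Btg2 went in opposite directions. Both encode members of the BTG/TOB family, which recruit the CCR4-NOT deadenylase and are associated with lymphocyte quiescence. Btg2 (ENSMUSG00000020423; chr1:134075170-134079120, minus strand, 2 exons) had an FPKM of 130 in PBS, from 19523 counts, and 152 in SJMHE1, from 24292 counts. Its log2 ratio was 0.23, with an interval from 0.21 to 0.26, and could not be told from that of Dusp2, the interval of the difference being -0.04 to 0.04. Btg1 (ENSMUSG00000036478; chr10:96617006-96622809, plus strand, 2 exons) had an FPKM of 233 in PBS, from 67330 counts, and 213 in SJMHE1, from 65229 counts. The log2 ratio of Btg1 was -0.13 (-0.14 to -0.11). Relative to Btg1, Btg2 was higher in SJMHE1 by 0.36 on the log2 scale (0.33 to 0.39).

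The mRNA decay genes Zfp36 and Zfp36l1 differed little between the libraries. Zfp36 encodes tristetraprolin, which binds AU-rich elements and promotes decay of mRNAs such as that of Tnf, and its own mRNA carries such an element. Zfp36 (ENSMUSG00000044786; chr7:28376784-28380253, minus strand, 2 exons) had an FPKM of 424 in PBS, from 80799 counts, and 442 in SJMHE1, from 89142 counts. The log2 ratio was 0.06, with an interval from 0.05 to 0.07. Its relative Zfp36l1 (ENSMUSG00000021127; chr12:80107754-80113013, minus strand, 2 exons) had an FPKM of 199 in PBS, from 32642 counts, and 191 in SJMHE1, from 33225 counts, a log2 ratio of -0.06 (-0.08 to -0.04). The level of Zfp36l1 is uncertain, since 56.9% of the 50-base windows of its transcript also occur in the pseudogene Zfp36l1-ps or in the overlapping antisense gene Gm26669, and the way the authors' counting treated such reads is not given in the sources used here. The share was 2.52% for Zfp36 and 2.63% for Btg1, and 0 for the other 7 genes. These shares cover 1 transcript per gene. For Dusp1 that transcript lies in a small part of the gene span, so reads from the rest of the span are not covered.

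The NF-kB inhibitor genes were both lower in SJMHE1, to unequal extents. Nfkbia encodes IκBα, a direct NF-kB target that ends the response by carrying NF-kB out of the nucleus. Nfkbia (ENSMUSG00000021025; chr12:55489410-55492647, minus strand, 6 exons) had an FPKM of 127 in PBS, from 11227 counts, and 110 in SJMHE1, from 10288 counts. Its log2 ratio was -0.21, with an interval from -0.25 to -0.17. Tnfaip3, which encodes A20, is needed in B cells to restrain NF-kB downstream of CD40 and Toll-like receptors. Tnfaip3 (ENSMUSG00000019850; chr10:19000910-19015410 in the table, minus strand, 9 exons) had an FPKM of 84.6 in PBS, from 33570 counts, and 57.1 in SJMHE1, from 23960 counts. That is 0.674 times the PBS level, a log2 ratio of -0.57 (-0.59 to -0.55). The log2 ratio of Nfkbia exceeded that of Tnfaip3 by 0.36 (0.32 to 0.41), so that the 2 NF-kB inhibitors were not lowered in proportion.

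The stress response genes were separated as well. Ppp1r15a encodes GADD34, which guides a phosphatase to eIF2α and so restores translation after stress. Ppp1r15a (ENSMUSG00000040435; chr7:45522916-45526268, minus strand, 2 exons) had an FPKM of 273 in PBS, from 43932 counts, and 267 in SJMHE1, from 45608 counts. Its log2 ratio of -0.03 (-0.05 to -0.01) was the one nearest to 0. Gadd45b, an NF-kB target that restrains JNK signaling through MKK7, lies at chr10:80930073-80932204 on the plus strand with 4 exons (ENSMUSG00000015312). The FPKM of Gadd45b was 36.2 in PBS, from 3161 counts, and 24.2 in SJMHE1, from 2233 counts, a log2 ratio of -0.58 (-0.66 to -0.51). It had the lowest ratio and the lowest counts of the 10 genes. The log2 ratios of Tnfaip3 and Gadd45b differed by 0.015, with an interval from -0.07 to 0.10.

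No member was past 2-fold, a log2 ratio above 1 or below -1. Among the compared genes 2.43% were past it on the higher and 3.57% on the lower side. At 1.5-fold, a log2 ratio of 0.585 in size, 0 of 10 members were past the threshold, but Gadd45b at -0.584 lay at its edge and was past it, at -0.589, when counts were scaled by their total (CPM). At this threshold 5.73% and 7.91% of the compared genes were more than 1.5-fold higher or lower. The counting interval lay above 0 for 4 members and below 0 for 6. This count says little about the members, since at this depth the interval lay above 0 for 31.0% and below 0 for 34.5% of the compared genes, and for 38.4% and 36.4% of the 4675 genes with at least 2000 counts in both libraries. Set among those 4675 genes, where percentiles 5 and 95 of the log2 ratio were -0.32 and 0.35, Gadd45b and Tnfaip3 fell outside this range. Of the 4675 genes, 1.13% and 1.16% had a lower ratio than Gadd45b and Tnfaip3. Dusp1 was inside the range, with 92.3% of the 4675 genes below it. Over all 12433 compared genes percentiles 5 and 95 were -0.818 and 0.645, and all 10 members lay inside that wider range. There, 7.94% and 8.22% had a lower ratio than Gadd45b and Tnfaip3. Requiring 2000 counts in SJMHE1 also leaves out genes with PBS counts near those of Gadd45b that were lowered further. Its rank among the 4675 genes is therefore partly set by the filter. The median log2 ratio of the 10 members was -0.04, and that of the compared genes was -0.01. The median of the members followed the scaling of the libraries and was above 0 in 2 of 13 alternatives, at 0.04 with FPKM rescaled to equal sums and at 0.002 with median-of-ratios factors. The other kinds of alternative, a pseudocount, a filter or the fold, cannot change the sign of a member's ratio. Only the scalings therefore say anything about direction. Ppp1r15a and Zfp36l1 also changed direction, Ppp1r15a in 3 scalings and Zfp36l1 in 1, and the other 8 genes kept their direction in all 13.

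**Figure D2:**
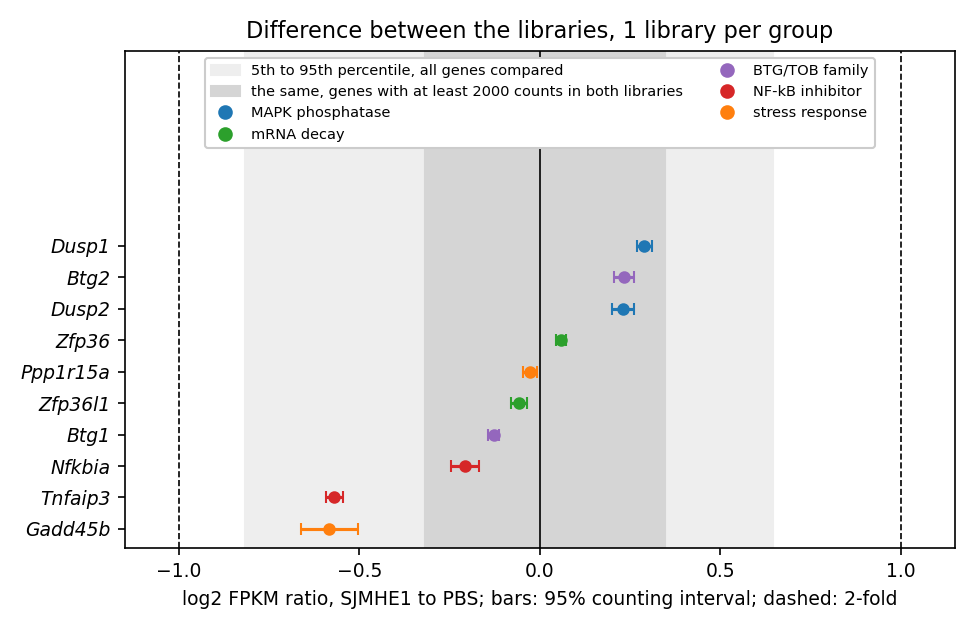
Log2 FPKM ratio of SJMHE1 to PBS for each gene, coloured by role, with 95% counting intervals. The light band runs from percentile 5 to 95 of the 12433 compared genes. The dark band does likewise for the 4675 genes with at least 2000 counts in both libraries. Tnfaip3 and Gadd45b lie to the left of the dark band but inside the light band. All 10 genes lie between the dashed lines at 2-fold.

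Compared in pairs, 42 of the 45 pairs of members had log2 ratios whose difference had a counting interval without 0. Over all pairs of the 4675 genes with at least 2000 counts in both libraries, this share was 76.1%. The 2 shares were not matched for depth. All members but Gadd45b had at least 10288 counts in each library, and more counts give narrower intervals. The shares therefore do not show that the members differ among themselves more than other genes do. The widest gap was between Dusp1 and Gadd45b, 0.87 (0.79 to 0.95), followed by Dusp1 and Tnfaip3, 0.86 (0.83 to 0.89). In raw counts, Dusp1 had 1.04 times the reads of Tnfaip3 in PBS and 1.89 times in SJMHE1. The pairs whose interval held 0 were Btg2 with Dusp2, Tnfaip3 with Gadd45b, and Ppp1r15a with Zfp36l1. These intervals leave room for differences of up to 0.04, 0.10 and 0.06.

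The promoters are shown for 4 genes that differed in direction and in their motifs, Dusp1 and Btg2, which were higher and hold a full cyclic AMP response element, and Tnfaip3 and Nfkbia, which were lower and hold NF-kB sites. Other members did not follow this pairing. Ppp1r15a holds a full element at a log2 ratio of -0.03, and Dusp2 has none at 0.23. Gadd45b had the lowest ratio, -0.58, without an NF-kB site. Whether motifs and ratios are connected was not tested. Each runs from 250 bases before to 50 bases after the RefSeq start site (GRCm38.p6), 5′ to 3′ on the strand of the gene. Capitals mark matches on either strand to an NF-kB site, a CArG box (the site of serum response factor), the full cyclic AMP response element TGACGTCA or its core TGACG, the AP-1 site TGANTCA, the heat shock element GAANNTTC and the TATA box TATAAA. Dusp1 is at chr17:26508423-26508722, Btg2 at chr1:134079106-134079405, Tnfaip3 at chr10:19015361-19015660 and Nfkbia at chr12:55492598-55492897, all on the minus strand.
Dusp1: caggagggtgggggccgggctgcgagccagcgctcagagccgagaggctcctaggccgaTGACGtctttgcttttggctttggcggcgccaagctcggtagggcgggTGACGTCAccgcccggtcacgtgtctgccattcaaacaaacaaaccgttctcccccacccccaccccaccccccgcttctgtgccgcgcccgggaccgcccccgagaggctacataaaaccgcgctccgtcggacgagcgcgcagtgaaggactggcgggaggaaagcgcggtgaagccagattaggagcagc
Btg2: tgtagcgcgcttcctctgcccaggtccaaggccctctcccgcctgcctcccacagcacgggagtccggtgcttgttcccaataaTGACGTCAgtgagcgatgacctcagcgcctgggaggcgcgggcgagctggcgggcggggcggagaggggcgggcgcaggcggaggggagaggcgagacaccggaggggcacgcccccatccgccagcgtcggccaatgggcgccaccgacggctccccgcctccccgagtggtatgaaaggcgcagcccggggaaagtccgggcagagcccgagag
Tnfaip3: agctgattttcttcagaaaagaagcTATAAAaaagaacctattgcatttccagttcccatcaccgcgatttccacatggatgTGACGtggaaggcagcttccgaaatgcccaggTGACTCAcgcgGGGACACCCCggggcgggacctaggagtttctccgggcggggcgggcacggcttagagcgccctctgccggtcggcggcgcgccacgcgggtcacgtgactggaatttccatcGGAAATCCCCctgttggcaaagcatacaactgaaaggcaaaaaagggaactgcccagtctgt
Nfkbia: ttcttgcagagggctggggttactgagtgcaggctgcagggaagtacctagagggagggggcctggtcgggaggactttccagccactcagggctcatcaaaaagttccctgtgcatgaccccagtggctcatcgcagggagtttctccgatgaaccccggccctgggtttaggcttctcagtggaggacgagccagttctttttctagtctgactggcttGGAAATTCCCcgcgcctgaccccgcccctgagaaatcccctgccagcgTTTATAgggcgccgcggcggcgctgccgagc

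NF-kB sites were matched in Tnfaip3, at 2 places, and in Nfkbia, at 1, and in none of the other 8 members, while 8.46% of the 32851 RefSeq promoters held a match. Tnfaip3 has a second RefSeq start site, whose promoter at chr10:19011914-19012213 held no match to any of these motifs. The full cyclic AMP response element was present in Dusp1, Btg2 and Ppp1r15a, against 1.79% of promoters, and its core, which every full element contains, in 6 members against 20.8%. Zfp36 had the only CArG box of the 10, and 1.63% of promoters had one. AP-1 sites were matched in Tnfaip3 and Zfp36l1 against 7.81% of promoters. The letters TATAAA of the TATA box were matched in 6 members against 13.6%, at any position and on either strand. The match began at -225 in Tnfaip3, and after the start site in Ppp1r15a, at 15, and in Nfkbia, at 19 on the opposite strand. The place of a TATA box is a short way before the start site. The heat shock element was matched in 0 members and in 7.86% of promoters, which says only that its letters are not in these windows. Sp1 sites (GGGCGG), not in capitals above, were present in 8 members against 35.7%.

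**Figure D3:**
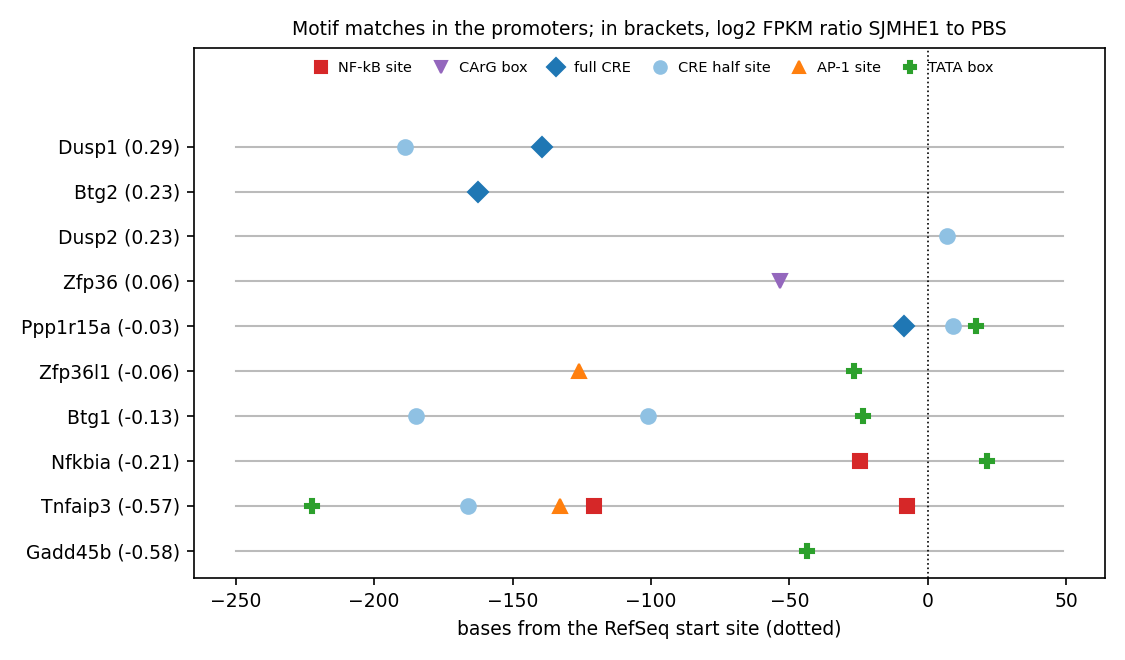
Position of each motif match in bases from the RefSeq start site, for the 10 members ordered by log2 FPKM ratio (in brackets), with the upstream promoter for Tnfaip3 and without Sp1 sites. Full cyclic AMP response elements (CRE) are seen in Dusp1, Btg2 and Ppp1r15a, and NF-kB sites in Nfkbia and Tnfaip3.

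The related genes were taken from lists of other members of the same pathways. Of 14 other MAPK phosphatases and Sprouty-type inhibitors, 11 were compared, and 0 were more than 1.5-fold higher and 4 more than 1.5-fold lower in SJMHE1. These were Dusp8, with an FPKM of 1.39 in PBS and 0.25 in SJMHE1 and a log2 ratio of -2.47 (-2.86 to -2.11), Dusp5, with an FPKM of 19.5 and 7.90, Dusp10, with 9.16 and 4.64, and Errfi1, with 2.47 and 1.49. Dusp6, an ERK phosphatase and the most abundant of the list, had an FPKM of 34.1 and 36.6 and a log2 ratio of 0.10 (0.05 to 0.15). Their median log2 ratio was -0.01. Of the other MAP kinase phosphatases on the list, Dusp6, Dusp7 and Dusp16 had log2 ratios above 0, as Dusp1 and Dusp2 did, at most 0.10, and Dusp4, Dusp5, Dusp8 and Dusp10 had ratios below 0.

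Of 16 other genes listed as NF-kB inhibitors, among them atypical IκB family genes that are not plain inhibitors, 15 were compared. Of these, 0 were past 1.5-fold in either direction, the log2 ratios lying between -0.32 and 0.23 with a median of 0.04. The lowest and most abundant was Nfkbid, an atypical nuclear IκB protein, with an FPKM of 67.5 in PBS and 54.2 in SJMHE1. Tnfaip3, at -0.57, was below this range, and Nfkbia was inside it. The 19 NF-kB subunits and upstream kinases had a median of -0.04 with 0 past 1.5-fold, and Rel, the most abundant and a main NF-kB subunit of mature B cells, had an FPKM of 105 and 78.1 and a log2 ratio of -0.42 (-0.45 to -0.40). Of 19 compared NF-kB target genes, 0 were more than 1.5-fold higher and 4 more than 1.5-fold lower, with a median of -0.06. The most abundant was Cd83, a B cell activation marker, at -0.65 (-0.67 to -0.62), and the lowest was the chemokine gene Ccl3 at -1.26 (-1.53 to -0.998). Relb and Nfkb2 are on both of these last lists.

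Of 13 compared genes of the GADD45 family and the integrated stress response, 0 were more than 1.5-fold higher and 3 more than 1.5-fold lower. Atf3, a transcription factor of the stress response, had an FPKM of 77.2 in PBS and 32.5 in SJMHE1 and a log2 ratio of -1.25 (-1.30 to -1.20). The list had a median of -0.26, with 11 genes below 0, and Ppp1r15b, the constitutive relative of Ppp1r15a, had an FPKM of 27.8 and 27.4. Gadd45a had an FPKM of 16.0 and 11.8, and Gadd45g 21.9 and 22.3. Of 17 genes for mRNA decay and the BTG/TOB family, 1 was past 1.5-fold, Zc3h12a, which encodes the RNase Regnase-1, with an FPKM of 40.9 and 27.1 and a log2 ratio of -0.59 (-0.65 to -0.54). Zfp36l2, another relative of tristetraprolin, had a log2 ratio of -0.30 (-0.34 to -0.27). The median of the list was 0.07.

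MAP kinases and their upstream kinases had a median of -0.03 over 19 genes, with 0 past 1.5-fold. Map2k1, which encodes MEK1 and had the highest mean FPKM of both libraries, had a log2 ratio of 0.26 (0.21 to 0.30). In PBS alone Mapkapk2, a kinase downstream of p38, was higher, with an FPKM of 46.6 in PBS and 37.0 in SJMHE1. The immediate early transcription factors, which are induced by the same signals, had a median of -0.16 over 21 genes, with 0 more than 1.5-fold higher and 7 more than 1.5-fold lower. Fos, with the highest mean FPKM of both libraries, had an FPKM of 731 and 1050 and a log2 ratio of 0.52 (0.51 to 0.53), while Fosl2 had 2.22 and 0.65. In PBS alone Jund was higher than Fos, with an FPKM of 854 in PBS and 766 in SJMHE1. By the annotation of the table, Dusp1, Dusp2 and Gadd45b belong to the KEGG pathway MAPK signaling and Nfkbia, Tnfaip3 and Gadd45b to NF-kappa B signaling, so that Gadd45b is in both and 5 members are in neither. Without the members, 6 of 171 compared MAPK genes were more than 1.5-fold higher and 14 lower, with a median of -0.06, and 1 of 76 NF-kappa B genes was higher and 10 lower, with a median of 0.04.

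The heat shock genes are given as the setting in which the members were measured. Of 18 genes, 16 were more than 1.5-fold higher in SJMHE1 and 0 lower, with a median of 1.003. The list was known from earlier results of these data to be higher. The median of 12 housekeeping genes was -0.08. Whether heat shock gene expression and the levels of the members are connected was not tested.

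**Figure D4:**
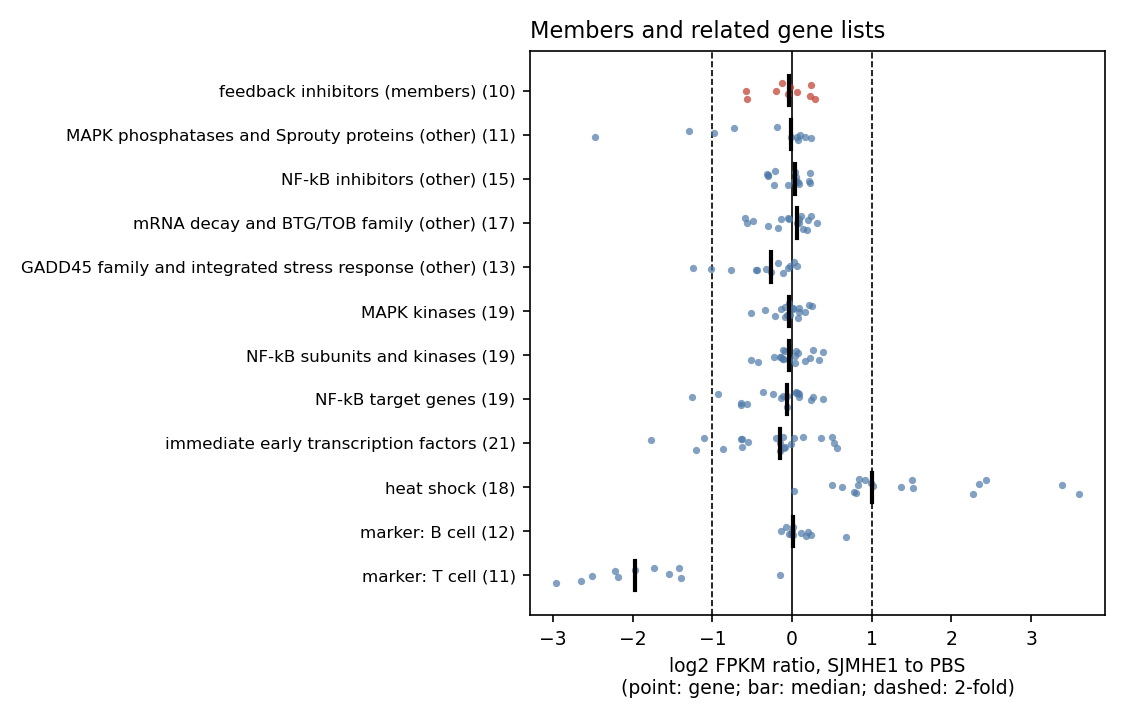
Log2 FPKM ratio of SJMHE1 to PBS for each compared gene (points, shifted vertically at random for legibility) of the 10 members and 11 related lists, with the number of genes in brackets, the median as a bar and 2-fold as dashed lines. The members lie around 0 between -0.58 and 0.29, the heat shock genes lie above 0 and the T cell markers below it.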

How the data were processed

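B cells were isolated from the spleen by FACS, total RNA was depleted of rRNA, and the libraries were sequenced by LC-BIO and analyzed on its cloud platform. The submitters' processing notes name bcl2fastq 2.0, HISAT2, StringTie, DESeq2, limma and the build mm10, without a role or other versions, and strand use in counting is not given in the sources used here. Among the values the authors deposited are raw counts, in whole numbers. The FPKM deposited by the authors are counts per gene length and library size, rounded to 2 decimals. A further 2 columns of per-sample values, whose names matched no sample of the series, were not used, so the planned comparisons with Control were not made.

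The log2 ratio of FPKM, SJMHE1 to PBS, was taken without a pseudocount. Its interval is the exact Clopper-Pearson 95% interval of the share of SJMHE1 in both counts, and that of FPKM is the exact Poisson interval. Differences between members use a Wald interval of the log counts. The methods of the ratio were tested on simulated data. Alternatives changed the scaling, pseudocount, filter and fold. The members and lists were chosen with earlier results of these data known. Named are all members, and of each related list the extremes past 1.5-fold and the gene with the highest mean FPKM. Related genes outside this rule (Dusp4, Dusp5, Dusp7, Dusp16, Jund, Mapkapk2, Dusp10, Errfi1, Ppp1r15b, Gadd45a, Gadd45g and Cd3e) were chosen after their values were seen. Gene coordinates in the table equal those of GENCODE M21 (GRCm38) for 9 of 10 members, the exception being Tnfaip3. Promoters came from RefSeq GRCm38.p6 by symbol, matching 10 of 10. Dusp1, Ppp1r15a, Zfp36 and Zfp36l1 overlap antisense genes, and Dusp1 also overlaps AC122252.1 and AC122252.4 on its own strand. Some genes and sequences are not reported here. Python 3.11.15, numpy 2.4.6, pandas 2.3.3, scipy 1.17.1, matplotlib 3.10.9, R 4.3.3, edgeR 4.0.16 (TMM factors) and DESeq2 1.42.0 (size factors) were used.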

Additional observations from a re-analysis of the deposited data

How the results depend on the processing

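No paired analysis was possible because PBS and SJMHE1 have 1 library each and the values come from no test. For the same reason no replicate could be left out, and nothing was recomputed for Control. Of 13 alternatives, 0 put a member past 2-fold. A threshold of 1.5-fold was combined with the other settings after seeing the data, and 1 member, Gadd45b at -0.589, was past it with counts scaled by their total and 0 members with the others. Of 130 member values, 97 stayed inside their counting interval, 29 left it and 4 changed sign. The filters and the fold cannot change the ratio of a member, so many of the 97 were fixed in advance. With FPKM rescaled to equal sums, every member left its interval or changed sign. Ppp1r15a was 0.055 with FPKM rescaled to equal sums, 0.017 with median-of-ratios factors and 0.003 when the 50 most abundant genes were left out of the scaling, and Zfp36l1 was 0.026 with equal sums. In the same order the median of the members, -0.042, was 0.041, 0.002 and -0.012, and it was -0.017 with TMM factors. The median of the compared genes, -0.013, was 0.07 with equal sums. Over all genes, 302 were past 2-fold on the higher and 444 on the lower side. These counts became 100 and 146 when a pseudocount of 1 was added, 1367 and 2018 when no gene was filtered, 101 and 151 when both libraries had to reach an FPKM of 1, 52 and 93 when 1 library had to reach 5, 89 and 171 over protein-coding genes and 712 and 983 at 1.5-fold. The share of higher genes among these was 40.5%, and 46.8% with equal sums and 34.2% over protein-coding genes. The lowest count of a member was 2233, so depth did not limit these values, while the spread between mice is unknown with 1 pooled library per group.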
